A study of Hernandia nymphaeifolia with 9 samples.

Results

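Of 315331 assembled leaf genes of Hernandia nymphaeifolia, 23 were far lower under salt than in fresh water and lay at about the same low level at 14 d and at 7 d. They were chosen by their own levels. The estimated counts of all isoforms of a gene were summed, divided by the library total and multiplied by 1000000, which gives CPM. A member had a control mean under 500 CPM and at least 10 CPM in its lowest control library. That lowest control library was at least 3 times as high as the highest of the 6 salt libraries. The 14 d mean divided by the 7 d mean, where the 7 d mean was above 0, was between 0.67 and 1.5. The levels of the summed genes in all 3 groups were therefore used in the choice, and they are described below without a test.

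The libraries were made from leaf polyadenylated RNA of 2-year-old seedlings of this coastal tree, and the study asked how the plants reprogrammed transcription under salinity. The groups were 300 mM NaCl for 14 d, 300 mM NaCl for 7 d and a fresh water control, with 3 libraries each. In every group, the control included, seedlings stood submerged up to their branches during 3 h of each 12 h. The labels do not say whether the leaves of 14 d and 7 d came from the same plants, nor on which day the control was sampled. Total counts were 13166552 to 14201943 per library, so that 3 counts were worth 0.211 to 0.228 CPM.

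A leaf that takes up salt meets a water deficit first and a build-up of sodium and chloride later, and plants commonly respond by slowing growth and adjusting transport, osmotic balance and metabolism. A transcript that becomes scarce may be made less or broken down faster, and in whole leaves fewer cells of a type and less RNA per cell cannot be told apart. The identifiers here are those of the Trinity assembler, which groups overlapping sequence into components (DN and c numbers), splits these into assembled genes (g) and lists the variants of a gene as isoforms (i). The common prefix of the identifiers is left out below. No annotation was used here, so the members carry no gene names or functions, and markers of leaf cell types could not be checked. CPM is not divided by transcript length, so a difference in CPM between genes need not be a difference in transcript number. Where genes are ordered, grouped or summarised by CPM below, this only describes their counts.

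Among the 315331 assembled genes, 12788 met the criteria on the control level, and the 23 members are 0.18% of these. Of the 12788 genes, 16.6% had all 6 salt libraries below all 3 controls. All 23 members did so by the way they were chosen. Summed over the members, the level was 183, 207 and 194 CPM in the 14 d libraries, 164, 189 and 183 CPM in the 7 d libraries, and 1462, 1109 and 1203 CPM in the control libraries. The means were 194 ± 11.9 CPM at 14 d, 179 ± 12.9 CPM at 7 d and 1258 ± 183 CPM in the control (SD, n = 3 each). The 14 d and 7 d libraries overlapped, and both lay far below every control library. The median log2 change of the members against the control was -2.52 at 14 d and -2.68 at 7 d, where the gene without salt counts enters at its bound. Over the 12788 genes the same medians were -0.0029 at 14 d and -0.0055 at 7 d. Both comparisons use the same 3 control libraries.

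**Figure D1:**
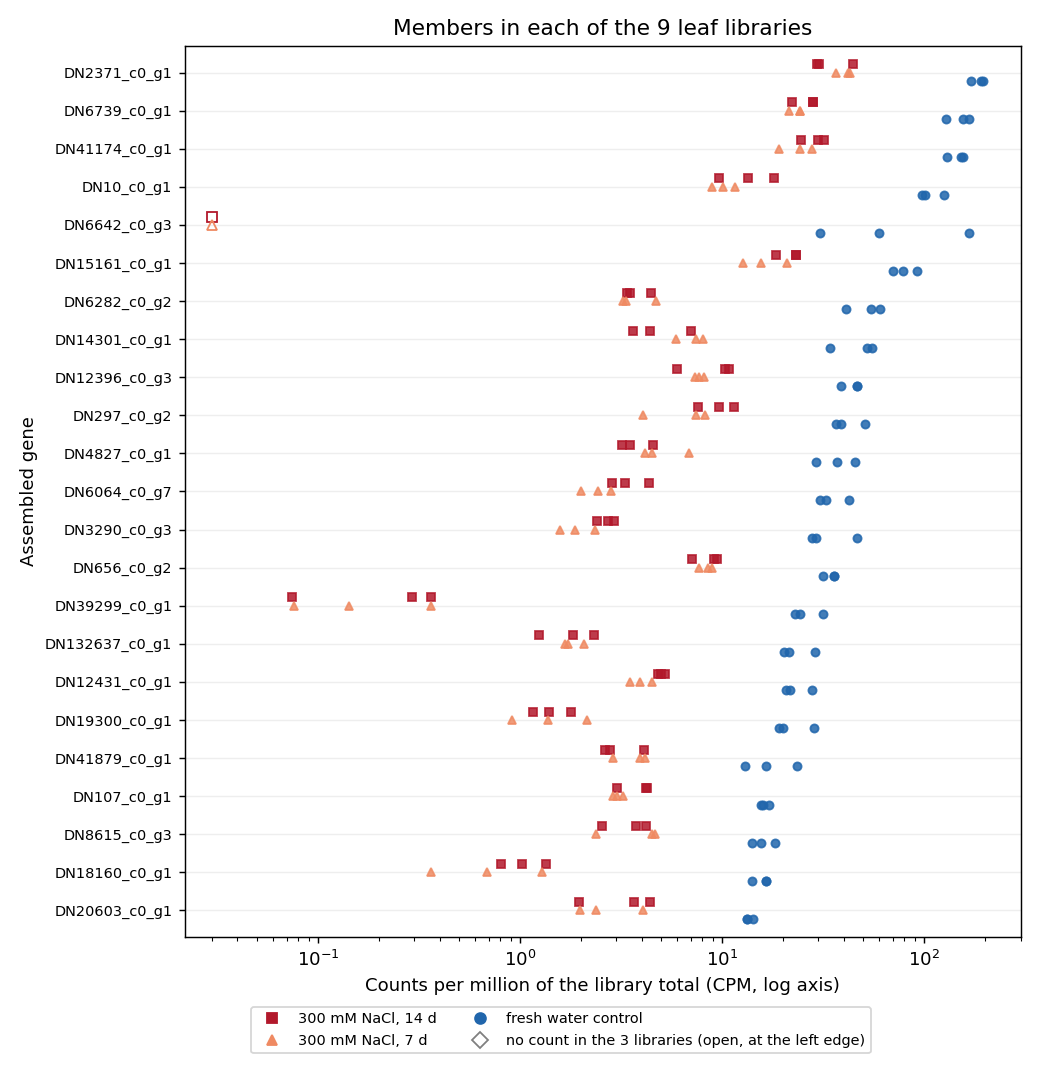
Level of each of the 23 members in the 9 leaf libraries, in CPM on a log axis, with 1 row per assembled gene, ordered by control mean. Squares are 14 d, triangles 7 d and circles fresh water control. Open symbols at the left edge mark a gene without a count. In every row the control circles stand to the right of all salt symbols, while squares and triangles overlap in most rows.

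The control mean of the members ran between 13.6 and 186 CPM, with a median of 35.4 CPM, against 33.7 CPM over the 12788 genes. The control mean divided by the mean of the 6 salt libraries had a median of 6.06 and was lowest, at 4.07, in DN656_c0_g2. It was at least 10 in 8 members, 5 to 10 in 9 and under 5 in 6.

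The member with the lowest salt level was DN6642_c0_g3, an assembled gene with a single isoform. It had 0 counts in all 6 salt libraries, against 2330, 836 and 434 counts, or 166, 60.0 and 30.6 CPM, in the control libraries. The gene was thus detected in every control library and in no salt library. Taking 3 counts over a salt group as the limit that a count of 0 allows, the control mean was at least 1161-fold higher than at 14 d and at least 1168-fold higher than at 7 d. Control replicate 1 carried most of the control counts. With control replicates 2 and 3 alone, the bounds were at least 615-fold for 14 d and at least 618-fold for 7 d. Its coefficient of variation among the controls, 83.3%, was the highest of the 23 members.

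DN39299_c0_g1 was nearly lost. It had 0.29, 0.075 and 0.36 CPM in the 14 d libraries, 0.36, 0.14 and 0.076 CPM in the 7 d libraries, and 31.6, 24.3 and 23.1 CPM in the control libraries. These levels stand for 10 counts at 14 d and 8 counts at 7 d, against 1110 counts in the control. From summed counts, the control was 107 times as high as 14 d (95% counting interval 58.1 to 224) and 135 times as high as 7 d (68.2 to 313). The intervals cover counting error only, and they overlap widely.

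In 4 further members of the 6 with the largest folds, the control mean was 13.8 to 17.0 times the salt mean. DN18160_c0_g1 had 0.81, 1.35 and 1.02 CPM in the 14 d libraries, 0.36, 1.29 and 0.68 CPM in the 7 d libraries, and 16.5, 16.4 and 14.0 CPM in the control libraries. DN19300_c0_g1 had 1.39, 1.79 and 1.17 CPM at 14 d, 1.38, 2.15 and 0.91 CPM at 7 d, and 28.6, 19.2 and 19.9 CPM in the control. In both genes the 14 d and 7 d libraries overlapped. DN3290_c0_g3 had 2.72, 2.92 and 2.40 CPM at 14 d, 1.88, 1.58 and 2.35 CPM at 7 d, and 46.4, 28.0 and 29.1 CPM in the control. DN6282_c0_g2 had 3.38, 3.51 and 4.45 CPM at 14 d, 4.71, 3.22 and 3.34 CPM at 7 d, and 60.4, 41.0 and 54.6 CPM in the control. The last of these genes had almost the same mean at both salt times, 3.78 ± 0.581 CPM at 14 d and 3.76 ± 0.824 CPM at 7 d (SD, n = 3 each). The remaining pair of members with folds of 10 or more were DN132637_c0_g1 (13.0) and DN6064_c0_g7 (11.9).

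The 4 members with control means over 100 CPM kept a clear residual level under salt. DN2371_c0_g1 had 29.4, 30.2 and 44.4 CPM in the 14 d libraries, 36.5, 42.0 and 42.8 CPM in the 7 d libraries, and 196, 171 and 191 CPM in the control libraries. DN6739_c0_g1 had 22.1, 28.3 and 28.1 CPM at 14 d, 24.3, 21.5 and 24.3 CPM at 7 d, and 167, 128 and 156 CPM in the control. In both, the salt groups overlapped and the controls stood 4.95 and 6.06 times above the salt mean, in that order of genes. DN41174_c0_g1 had 24.6, 32.1 and 29.8 CPM at 14 d, 19.1, 28.0 and 24.4 CPM at 7 d, and 153, 129 and 155 CPM in the control. DN10_c0_g1 had 13.5, 18.1 and 9.62 CPM at 14 d, 8.90, 11.5 and 10.1 CPM at 7 d, and 126, 101 and 97.7 CPM in the control. DN10_c0_g1 had the largest fold of these 4, with a control mean 9.05 times its salt mean, and 14 d replicate 3 was the lowest of its 14 d libraries.

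The other 11 members had control means between 13.6 and 80.5 CPM and folds between 4.07 and 8.35. Among them, DN14301_c0_g1 had 4.40, 7.03 and 3.64 CPM at 14 d, 7.46, 8.02 and 5.92 CPM at 7 d, and 34.1, 51.9 and 55.3 CPM in the control. DN297_c0_g2 had 9.69, 11.4 and 7.58 CPM at 14 d, 4.05, 8.24 and 7.44 CPM at 7 d, and 50.8, 36.6 and 38.7 CPM in the control. These are the members with the lowest and the highest ratio of 14 d to 7 d, 0.704 for DN14301_c0_g1 and 1.45 for DN297_c0_g2. Even there, the 14 d and 7 d libraries overlapped.

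The criterion of 3 times the highest salt library had members close to it. Just inside it lay DN15161_c0_g1, DN20603_c0_g1, DN8615_c0_g3 and DN41879_c0_g1, where the lowest control was 3.01, 3.02, 3.04 and 3.12 times the highest salt library. Just outside it lay DN33_c1_g3, DN19726_c0_g1, DN182_c0_g1 and DN4408_c0_g2, with 2.95, 2.94, 2.91 and 2.85 times. No gap separated members from non-members here.

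The second edge is the window on the ratio of 14 d to 7 d. In all, 59 genes met the control and 3-times criteria. Of these, 23 are the members, 19 had a ratio above 1.5 and 17 a ratio below 0.67. The members are thus the middle of a wider set of deeply lowered genes, of which 36 lie outside the window. At the edges, DN14301_c0_g1 with 0.704 was inside and DN3691_c0_g6 with 0.669 was outside, while DN297_c0_g2 with 1.45 was inside and DN19347_c0_g1 with 1.64 was outside.

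**Figure D2:**
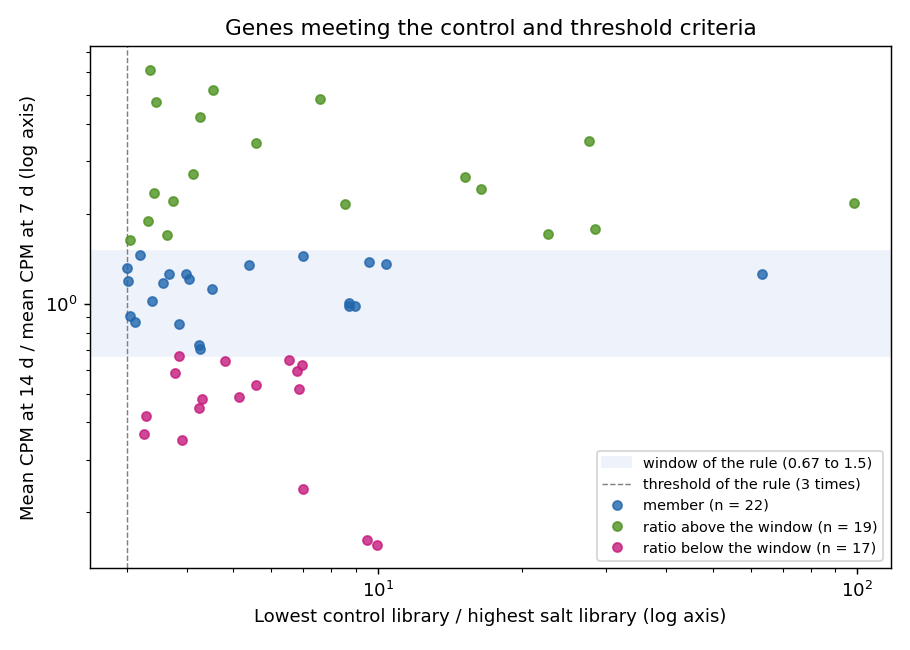
Genes that met the control and 3-times criteria, with the lowest control divided by the highest salt library on the horizontal log axis and the 14 d mean divided by the 7 d mean on the vertical log axis. Each point is a gene, the shaded band is the window of 0.67 to 1.5 and the dashed line the criterion of 3 times. The 22 members with salt counts fill the band between 0.704 and 1.45, and 36 genes lie above or below it.

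Between the salt times the members differed by small amounts, which the choice had bounded. The 14 d mean was above the 7 d mean in 15 of the 22 members with salt counts and below it in 7. The median ratio was 1.18 in the members and 0.995 over the 12788 genes. All 3 libraries of 14 d lay above all 3 of 7 d in 3 of the 22 members, DN12431_c0_g1, DN3290_c0_g3 and DN6064_c0_g7, where 21.8% of the 12788 genes did so. None of the 22 members had all 14 d libraries below all 7 d libraries, against 20.9% of the 12788 genes. The window removes genes with large differences, so nothing is read from these shares. Among the 14 d libraries, replicate 2 was the highest in 14 of the 22 members and replicate 3 the lowest in 13. Over the control-level genes with 14 d counts, replicate 2 was the highest in 38.7% and replicate 3 the lowest in 42.8%.

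The spread of the members among the control libraries is described next. Their coefficient of variation among the 3 controls had a median of 16.2%, against 11.1% over the 12788 genes. Control replicate 1 was the highest control in 20 of the 23 members, replicate 3 in 3 and replicate 2 in 0. Over the 12788 genes, replicate 1 was the highest control in 26.7%. Over the 2121 genes of these with all salt libraries below all controls it was the highest in 41.9%, and in 18 of the 36 genes outside the window. The level in control replicate 1 divided by the mean of replicates 2 and 3 had a median of 1.24 in the members, 1.06 in the 36 genes outside the window, 1.02 in the 2121 genes and 0.949 over the 12788 genes. With library sizes scaled by TMM, a trimmed mean of ratios between libraries, replicate 1 was the highest control in 21 of the 23 members. The part of this library in the choice of members was not tested, since leaving out a control can add genes to the 23 but remove none. The rule took 35 genes without control replicate 1, 32 without replicate 2 and 29 without replicate 3.

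**Figure D3:**
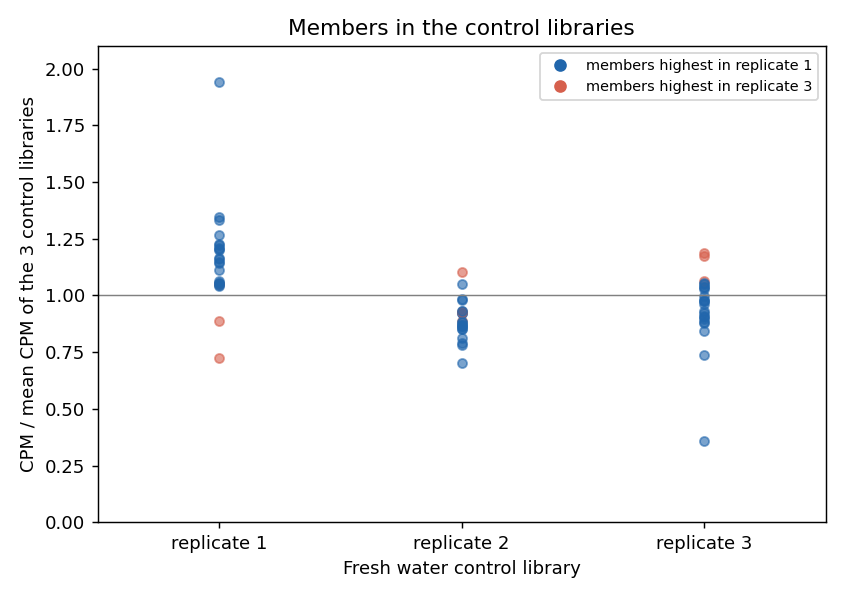
Level of each member in the 3 fresh water control libraries, as CPM divided by the mean CPM of that member over the 3 controls. Each point is a member, coloured by the control library in which it was highest. Of 23 members, 20 were highest in replicate 1, 3 in replicate 3 and 0 in replicate 2.

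The isoforms of a member could in principle lose their counts unevenly, which the sums over isoforms do not show. The members had 52 isoforms in the table, and 11 of the 23 had a single one, against 21.4% of the 12788 genes. The other 12 members had 41 isoforms, of which 36 had a mean over 1 CPM in a group. In 31 of these 36 all salt libraries lay below all controls, where 9.39% of all isoforms over 1 CPM did so. In the other 5 the groups overlapped. None of the 36 isoforms had all salt libraries above all controls, against 10.6% of all isoforms. Since their sums were chosen for being low, a majority of low isoforms follows from the choice. The isoform with the most counts was the same in all 9 libraries in 8 of the 12 members. Among these 8 is DN14301_c0_g1, whose other isoform had no counts in any library. The share over other genes is not given here, so nothing is read from this count.

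The share of each isoform in the counts of its gene was not used in the choice and was tested with edgeR's quasi-likelihood F test for differences in isoform use, with Benjamini-Hochberg adjustment over 18721 genes. The test could be made for 10 members with 34 isoforms. It called 2 of 10 members at 14 d against control, where 9.47% of all tested genes were called, and 2 of 10 at 7 d against control, where 16.1% were called. Counts this small lie near those background shares. For 14 d against 7 d it called 0 of 10 members, where 7.25% of genes were called. Members were chosen for low salt levels, and their isoforms could pass the filter through control counts alone. DN39299_c0_g1, for example, was tested with 10 counts at 14 d and 8 at 7 d. The comparison of 14 d with 7 d thus had few counts to test, and nothing is read from the 0. In that comparison 3 members had an unadjusted p below 0.05, and limma-voom also called 0. The shares of all tested genes that go with these counts are not given here, so nothing is read from them. On simulated counts this F test called unchanged genes more often than its threshold allows, so the limma-voom value is given beside each call.

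The change of isoform use that was called under every alternative was that of DN2371_c0_g1 at 7 d. Its isoform i25 held 11.2%, 8.42% and 18.7% of the gene's counts in the 14 d libraries, 27.2%, 19.6% and 30.9% in the 7 d libraries, and 9.26%, 7.25% and 8.39% in the control libraries. Every 7 d library was above every 14 d and control library, while 14 d and control overlapped. The means were 12.8 ± 5.33% at 14 d, 25.9 ± 5.72% at 7 d and 8.30 ± 1.01% in the control (SD, n = 3 each). The share of i4 was 49.9 ± 4.72% at 14 d, 38.4 ± 2.24% at 7 d and 50.8 ± 1.48% in the control (SD, n = 3 each). The change in isoform use at 7 d against control had an edgeR adjusted p of 0.000715 and a limma-voom adjusted p of 3.82e-05. It was called in 15 of 15 alternatives, with adjusted p between 3.82e-05 and 0.0242. In CPM, i25 itself was 4.72 ± 3.13 at 14 d, 10.5 ± 2.53 at 7 d and 15.5 ± 2.88 in the control (SD, n = 3 each), and its 7 d and control libraries overlapped. For the gene at 14 d against control the edgeR adjusted p was 0.169, and for 14 d against 7 d it was 0.213, so neither difference passed the test. Without 14 d replicate 3, in which i25 was highest of the 14 d libraries, the edgeR adjusted p for 14 d against 7 d was 0.00887.

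In DN41879_c0_g1 the remaining salt counts were spread differently over the isoforms. Its isoform i10 held 39.5%, 30.9% and 47.2% of the counts in the 14 d libraries, 9.26%, 22.4% and 36.8% in the 7 d libraries, and 3.04%, 0% and 3.80% in the control libraries. Every salt library was above every control library, on few counts, since the whole gene had 129 counts at 14 d and 150 at 7 d, against 742 in the control. In CPM, the 14 d libraries of i10 lay above all others and 7 d and control overlapped, with 1.204 ± 0.0903 at 14 d, 0.785 ± 0.373 at 7 d and 0.402 ± 0.365 in the control (SD, n = 3 each). Isoform i5 held 11.4 ± 10.9% at 14 d, 15.7 ± 7.31% at 7 d and 41.3 ± 5.80% in the control (SD, n = 3 each). The edgeR adjusted p was 0.00141 at 14 d and 0.00750 at 7 d, both against control, and the limma-voom adjusted p was 0.0156 at 14 d and 0.0346 at 7 d. The call was made in 7 of 15 alternatives at 14 d, with adjusted p up to 0.427, and in 6 of 15 at 7 d, with adjusted p up to 0.325.

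DN12431_c0_g1 had the third change. Its isoform i1 held 25.4%, 16.4% and 22.7% of the counts in the 14 d libraries, 9.26%, 12.7% and 13.0% in the 7 d libraries, and 8.56%, 10.9% and 11.1% in the control libraries. Every 14 d library was above all others, and 7 d and control overlapped. The edgeR adjusted p at 14 d against control was 0.0261 and the limma-voom adjusted p 0.0239. The change was called in 8 of 15 alternatives, with adjusted p between 0.0182 and 0.491. How Salmon divides reads shared by isoforms limits all values of single isoforms.

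**Figure D4:**
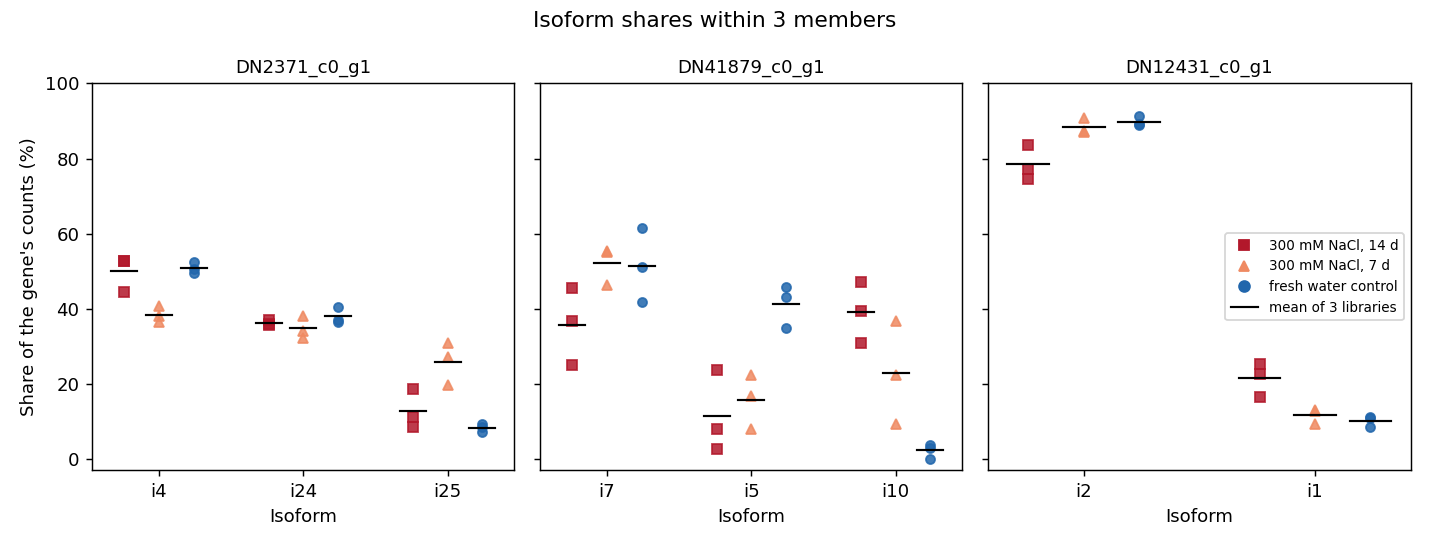
Share of the gene's counts held by isoforms of the 3 members with a called change in isoform use, in percent. Squares are 14 d, triangles 7 d and circles control libraries, and bars are means of 3 libraries. In DN2371_c0_g1 the 7 d triangles of i25, 19.6% to 30.9%, stand above all other libraries, and in DN41879_c0_g1 all salt libraries of i10 stand above the controls.

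Assembled genes of the same Trinity component as a member were not themselves chosen, and their levels could be tested. Whether they share sequence with the member was not checked. They may be related genes, alleles or pieces of the same transcript, which the identifiers do not tell apart, and reads may be divided between them, so their values are uncertain in this respect. No component held more than 1 member. In all, 15 members had 34 such neighbours and 8 members had none. Of the neighbours, 24 from the components of 13 members passed edgeR's expression filter and entered edgeR's quasi-likelihood test on summed counts, with Benjamini-Hochberg adjustment over 62564 genes.

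Of the 24 neighbours, 17 at 14 d and 15 at 7 d were not called against the control. At 14 d against control, 5 of 24 were called lower, where 8.4% of all tested genes were, and 2 higher, where 7.97% were. At 7 d against control, 5 of 24 were called lower, where 13.9% of all tested genes were, and 4 higher, where 11.3% were. The median log2 change of the 24 was -0.09 at 14 d and -0.18 at 7 d. At both times 2 were called lower, DN656_c0_g1 and DN107_c0_g2, and 2 higher, DN3290_c0_g2 and DN4827_c0_g5. The share of all tested genes called at both times is not given here, so nothing is read from these counts. The rule for named genes gave 4 neighbours, DN297_c0_g1, DN3290_c0_g1, DN3290_c0_g2 and DN6642_c0_g1. The other neighbours named here were chosen after their values were seen.

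DN656_c0_g1 moved with the member of its component. It had 24.3, 29.98 and 24.05 CPM in the 14 d libraries, 12.0, 16.1 and 12.6 CPM in the 7 d libraries, and 77.1, 64.7 and 74.4 CPM in the control libraries. The 3 groups did not overlap. The log2 change against control was -1.54 (SE 0.149) at 14 d and -2.43 (SE 0.155) at 7 d, with edgeR adjusted p of 1.98e-05 at 14 d and 5.34e-07 at 7 d. The member DN656_c0_g2 had 9.40, 9.12 and 7.07 CPM at 14 d, 7.67, 8.88 and 8.51 CPM at 7 d, and 35.8, 31.7 and 35.6 CPM in the control. The member held level between the times, while its neighbour was higher at 14 d than at 7 d by 0.89 on the log2 scale (SE 0.152, edgeR adjusted p = 0.00242). DN107_c0_g2 was at 0.244 ± 0.151 CPM at 14 d, 0.171 ± 0.0386 CPM at 7 d and 1.14 ± 0.268 CPM in the control (SD, n = 3 each), close to the level of a few counts. Its log2 change against control was -2.24 (edgeR adjusted p = 0.00454) at 14 d and -2.69 (edgeR adjusted p = 0.00137) at 7 d.

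In the component DN4827_c0 a neighbour moved the opposite way. The member DN4827_c0_g1 had 3.52, 4.56 and 3.21 CPM at 14 d, 4.49, 6.88 and 4.18 CPM at 7 d, and 45.7, 29.2 and 37.2 CPM in the control. DN4827_c0_g5 had 30.98, 36.3 and 15.01 CPM at 14 d, 13.2, 8.95 and 9.27 CPM at 7 d, and 0.43, 0.43 and 0.56 CPM in the control. Its 3 groups did not overlap, and the control, highest in the member, was lowest here. The log2 change against control was 5.76 (SE 0.395, edgeR adjusted p = 1.46e-06) at 14 d and 4.42 (SE 0.401, edgeR adjusted p = 6.67e-06) at 7 d. The call against control was made in 17 of 17 alternatives at each time. The other tested neighbours of this member, DN4827_c0_g3 and DN4827_c0_g4, were not called in either comparison with the control.

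The neighbours of DN3290_c0_g3 were also higher under salt, by far smaller amounts. DN3290_c0_g2 had 112, 109 and 112 CPM at 14 d, 133, 145 and 143 CPM at 7 d, and 77.4, 84.6 and 73.7 CPM in the control. Its log2 change against control was 0.43 (SE 0.106, edgeR adjusted p = 0.0133) at 14 d and 0.82 (SE 0.106, edgeR adjusted p = 0.000109) at 7 d. The call at 14 d was lost without 14 d replicate 1 and with no filter on low counts, where the log2 change stayed between 0.39 and 0.46 over all libraries left out in turn. DN3290_c0_g1 had 98.4, 96.9 and 103 CPM at 14 d, 111, 108 and 111 CPM at 7 d, and 83.5, 77.2 and 81.5 CPM in the control. It was called higher at 7 d (log2 change 0.42, SE 0.108, edgeR adjusted p = 0.0117), a call lost without control replicate 2 and with no filter on low counts, and not at 14 d (log2 change 0.23, edgeR adjusted p = 0.187).

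In the component of the member without salt counts, control replicate 1 again stood apart. DN6642_c0_g1 had 36.9, 45.5 and 28.4 CPM at 14 d, 16.7, 20.6 and 15.2 CPM at 7 d, and 412, 33.0 and 29.6 CPM in the control. DN6642_c0_g2 had 30.8, 36.0 and 16.0 CPM at 14 d, 11.7, 14.4 and 9.95 CPM at 7 d, and 82.4, 32.3 and 30.4 CPM in the control. In all 3 assembled genes of the component that were compared, control replicate 1 was the highest of the 9 libraries. At 7 d against control the log2 change was -3.23 (SE 0.801, edgeR adjusted p = 0.00979) for DN6642_c0_g1 and -2.04 (SE 0.386, edgeR adjusted p = 0.00179) for DN6642_c0_g2. Without control replicate 1 these were -0.84 (edgeR adjusted p = 0.00747) for DN6642_c0_g1 and -1.38 (edgeR adjusted p = 0.00272) for DN6642_c0_g2. The call for DN6642_c0_g1 was made in 14 of 16 alternatives, with adjusted p up to 0.088. It was lost by limma-voom (log2 change -2.09) and without 7 d replicate 3, and DESeq2 gave no p-value for this gene. Neither neighbour was called at 14 d, where DN6642_c0_g1 had a log2 change of -2.20 with all libraries and 0.19 without control replicate 1. For 14 d against 7 d the log2 difference was 1.03 for DN6642_c0_g1 (edgeR adjusted p = 0.437) and 1.15 for DN6642_c0_g2 (edgeR adjusted p = 0.0714), with all 14 d libraries above all 7 d libraries in both. The member had no counts under salt, while both neighbours, though called lower at 7 d, had 9.95 to 45.5 CPM in the salt libraries.

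**Figure D5:**
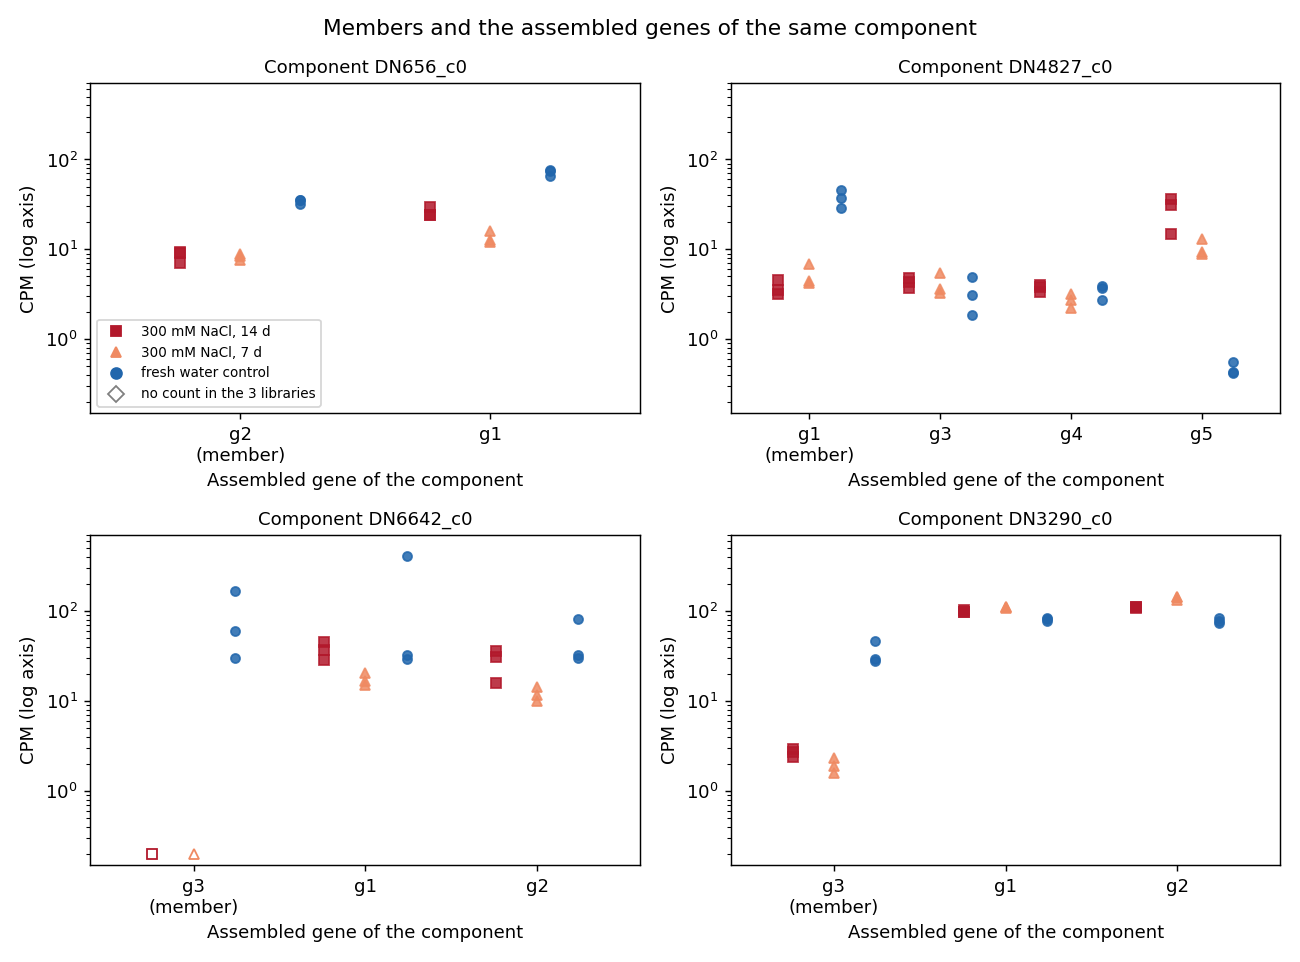
Level of members and tested neighbours of the same Trinity component in 4 components, in CPM on a log axis. Squares are 14 d, triangles 7 d and circles control libraries, and open symbols mark a gene without a count. The neighbour g1 of DN656_c0_g2 is low under salt like the member, g5 of DN4827_c0_g1 is high under salt, and g1 and g2 of DN6642_c0_g3 keep 9.95 to 45.5 CPM under salt.

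The remaining calls among neighbours were each made at a single time. At 14 d against control, DN297_c0_g1 had a log2 change of -0.36 (SE 0.114, edgeR adjusted p = 0.0457), which was called in 5 of 17 alternatives. DN6282_c0_g3 had -0.79 (SE 0.206, edgeR adjusted p = 0.0189), called in 13 of 17, and DN41174_c0_g2 had -1.93 (SE 0.423, edgeR adjusted p = 0.00700), called in 16 of 16. DN41174_c0_g2 was at 0.416 ± 0.166 CPM at 14 d and 1.54 ± 0.555 CPM in the control (SD, n = 3 each), close to the level of a few counts. It was too low to enter the alternative with a mean of 1 CPM or more. At 7 d against control, DN19300_c0_g2 had a log2 change of -3.65 (SE 0.607, edgeR adjusted p = 0.000731), called in 17 of 17. DN15161_c0_g2 had 0.98 (SE 0.327, edgeR adjusted p = 0.0430), called in 10 of 17. The level of DN19300_c0_g2 was 0.296 ± 0.138 CPM at 7 d, also a few counts, and 3.75 ± 1.47 CPM in the control (SD, n = 3 each). A call at one time and not at the other does not show that the times differ, and for 14 d against 7 d 2 of 24 neighbours were called lower, where 4.37% of tested genes were, and 3 higher, where 6.89% were.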

How the data were processed

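The deposited table holds a whole number per assembled transcript and library, taken here as the authors' rounded estimated counts without scaling. The submitters' processing notes list Salmon, HISAT2 and FastQC, with no version. How the transcripts were assembled and filtered is not given in the sources used here. CPM were computed from the deposited estimated counts, summed per assembled gene and divided by column totals.

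Isoform use (gene-level F test) and summed counts of neighbours were tested with edgeR 4.0.16 in R 4.3.3, with TMM scaling, edgeR's filter (minimum count 10, minimum total 15) and 1 model with a mean per group over all 9 libraries. A Benjamini-Hochberg adjusted p below 0.05 counted as a call. Each SE was derived from the test, as the size of the log2 change divided by the square root of its F statistic. The methods were tested on simulated data. Alternatives used DESeq2 1.42.0, limma-voom (limma 3.58.1), other filters and scaling, a replicate block, 2 groups only, and each library left out in turn. Those for isoform direction, for the highest control and for the order of 14 d and 7 d were added after seeing the data. Figures were drawn with matplotlib 3.10.9, and summaries made with pandas 2.3.3 and SciPy 1.17.1 under Python 3.11.15.

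The members and the rules were chosen with earlier results of these data known. Members were named by highest control mean (8), largest fold (6), nearness to the 3-times criterion (4), extreme ratios of 14 d to 7 d (3 each way) and called isoform use (up to 6), and called neighbours by mean CPM (up to 4). This named 19 of 23 members. DN12396_c0_g3, DN656_c0_g2, DN132637_c0_g1 and DN107_c0_g1 fall outside it, and those printed were chosen after their values were seen. Between libraries of a group, the chi-square over genes was 4.93 to 18.0 per degree of freedom, above counting noise, and none was treated as a duplicate. The labels call them biological replicates from separate plants of a treatment, and p-values measure the spread between these libraries.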

Additional observations from a re-analysis of the deposited data

Results flagged for a closer look

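For 5 neighbours of members the level under salt was called different between the times, by the edgeR test of 14 d against 7 d with adjustment over all genes. There was 1 control group, of unstated sampling day. A change in the effect of salt therefore cannot be told apart from other differences between the sampling days. DN4827_c0_g5 was higher at 14 d than at 7 d, with a log2 difference of 1.34 (edgeR adjusted p = 0.00856), with all 3 libraries of 14 d above all 3 of 7 d. That call was lost without 7 d replicate 3. DN656_c0_g1 was higher at 14 d, with 0.89 (edgeR adjusted p = 0.00242), again with all 3 libraries, and was called in 17 of 17 alternatives. DN19300_c0_g2 had a log2 difference of 2.29 (edgeR adjusted p = 0.0442), with 1.69, 2.54 and 0.36 CPM at 14 d and 0.22, 0.21 and 0.46 CPM at 7 d. The groups overlapped, and the call was made in 7 of 16 alternatives. DN3290_c0_g2 was lower at 14 d, with a log2 difference of -0.39 (edgeR adjusted p = 0.0317), with no overlap, and was called in 10 of 17 alternatives. DN297_c0_g1 was lower at 14 d, with a log2 difference of -0.47 (edgeR adjusted p = 0.0180). It had 262, 279 and 242 CPM at 14 d and 351, 353 and 345 CPM at 7 d, and was called in 15 of 17 alternatives. DN6642_c0_g1 and DN6642_c0_g2 were not called with all libraries. Control replicate 1 is in neither group of this comparison. It enters through the filter, the TMM scaling and the shared estimate of the spread. Without that library both genes were called, with log2 differences of 1.02 (edgeR adjusted p = 0.00222) and 1.15 (edgeR adjusted p = 0.00929) in that order. Over the alternatives DN6642_c0_g1 was called in 3 of 16 and DN6642_c0_g2 in 5 of 17.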

How the results depend on the processing

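The number of members, 23, rests on the cut-offs and on single libraries. A window of 0.5 to 2 gave 36, no window 59, and a criterion of 2 times 75 and of 4 times 13. Single transcripts in place of summed genes gave 45 transcripts, whose genes include 19 of the 23 members. TMM-scaled sizes gave 26, of which 22 were members. Leaving out each library in turn gave 20 to 35, the highest without control replicate 1. Of the 23 members, the fewest, 18, were kept without 7 d replicate 3, and all 23 were kept when a control was left out. Members with a change in isoform use at 14 d against control, 2, became 1 by Simes combination, 0 with transcripts with any count, 1 at a mean level of 1 CPM or above, and 0 to 2 with libraries left out. It was 0 without 14 d replicate 1, without 14 d replicate 3 and without control replicate 1. At 7 d against control, 2 became 1 with any count, 1 at a mean level of 1 CPM or above, and 1 to 2 with libraries left out. For 14 d against 7 d, 0 became 0 to 1, the 1 without 14 d replicate 3. Neighbours called lower at 14 d, 5, became 8 with any count, 3 with a mean of 1 CPM or more, 3 with only the 2 groups compared, and 3 to 6 with libraries left out, 3 without 14 d replicate 1. At 7 d the count was 4 to 5 with libraries left out. Among the 5 neighbours lower at 14 d, DN107_c0_g2 and DN41174_c0_g2 averaged 0.518 and 0.975 CPM over all libraries. The 1 CPM filter therefore left both untested, and neither is a lost call. In the fit of only the 2 groups, DN297_c0_g1 (edgeR adjusted p = 0.108) and DN6282_c0_g3 (edgeR adjusted p = 0.0549) were no longer called. Apart from the genes left out by that filter, the cause of the differences above was not tested. Of 21 called changes of neighbours, 0 changed sign in an alternative, and of 51 changes not called 11 did. Among them is DN6642_c0_g1 at 14 d against control, whose log2 change of -2.20 lay between -2.70 and 0.19 with libraries left out, the 0.19 without control replicate 1.

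Whether the replicate numbers pair the libraries is not settled by their deviations from the group means. Those of same-numbered libraries correlated at -0.216 to 0.368, with 5 of 9 pairs over 0.1. Other pairs correlated at -0.346 to 0.461, with 5 of 18 over 0.1. With the replicate block, 1 member had a called change in isoform use at 14 d, 2 at 7 d and 0 between the times, and 4 neighbours were called lower at 14 d and 5 at 7 d. At these depths a count of 0 in a library still allows a level of up to 3 counts, 0.211 to 0.228 CPM. Levels of a few counts in a single library are uncertain.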
